A study of Homo sapiens with 6 samples.

Results

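The genes described here are long noncoding RNA genes named LINC followed by a number, in T24 cells, a human cell line from a urinary bladder carcinoma. RNA was sequenced from 3 vehicle libraries and from 3 libraries of cells given LPS together with nigericin, called treated below; LPS is a bacterial lipopolysaccharide that Toll-like receptors sense, and nigericin is a potassium ionophore used to trigger the NLRP3 inflammasome. No group received LPS alone or nigericin alone, so the agents cannot be told apart, and the labels give no dose, no duration and no statement that the replicates came from separate cultures, so p-values measure only the spread between these libraries. A gene was a member when its symbol was LINC and digits only and its mean reached at least 1 CPM (counts per 1000000, with library sizes scaled by TMM factors) in either group. Of 1042 LINC genes among the 37871 listed, 270 had 0 counts in every library, 321 passed the count filter and were tested, and 133 were members.

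LINC symbols are given to long RNAs without a protein reading frame whose genes lie between other genes. Such RNAs are mostly made by RNA polymerase II, capped, often spliced and polyadenylated, and many stay in the nucleus, where the RNA exosome degrades a large part of them; for most of them no function is known. Their amount in a cell therefore depends on transcription at the locus, on whether transcription of the neighbouring gene ends properly, and on decay.

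The members were thus chosen by their group means in the same libraries that are compared. Of the 133 members, 85 reached 1 CPM in both groups, 34 in vehicle only and 14 in treated only, so 48 members entered through the group in which they were high and counts of changed members are a description. Just inside the threshold lay LINC03073, with a vehicle mean of 1.01 CPM, and LINC01977, with a vehicle mean of 1.02 CPM. Just outside lay LINC01535, at 0.984 CPM in vehicle and 0.290 CPM in treated, and LINC02757, at 0.0387 CPM in vehicle and 0.984 CPM in treated. The label "intergenic" held for part of the set. GENCODE 29 (GRCh38) types 102 of the 133 as lincRNA, 17 overlap the span of a protein-coding gene, 51 share at least 50 exon bases with another gene, and 79 do neither. Whether reads were counted by strand is not given in the sources used here, so for those 51 reads from overlapping genes cannot be told apart.

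The libraries held 66180407 to 89152224 counts, of which the members took 0.0604% to 0.0734%. The cells carried the epithelial keratins KRT7, KRT8, KRT18 and KRT19 at high level, while the epithelial cadherin gene CDH1 was at 0 in all vehicle libraries and the uroplakin gene UPK1B at 0 in every library. Of the 6 fibroblast markers, 2 reached 1 CPM, COL1A1 at 4.29 and 3.35 CPM and PDGFRB at 1.07 and 0.851 CPM, DCN and LUM were at 0, and COL3A1 rose to 0.178 CPM; the sums were 5.11 to 5.87 CPM in vehicle and 4.38 to 4.53 CPM in treated. Of the 3 leukocyte markers matched, CD68 fell from 7.26 to 2.48 CPM, LYZ rose from 0.0670 to 0.673 CPM, and PTPRC was at 0 in vehicle with a mean of 0.0120 CPM in treated; the sums were 4.87 to 12.0 CPM and 2.76 to 3.59 CPM. The 3 endothelial markers all stayed under 1 CPM. Of the 6 epithelial markers, 5 reached 1 CPM, and their summed level was 6533 to 9532 CPM in vehicle and 3508 to 4510 CPM in treated. For the 9 urothelial markers, of which 3 reached 1 CPM, the sums were 107.4 to 110.6 CPM and 55.8 to 61.04 CPM. Some of these markers moved with the treatment: KRT7, KRT8, KRT18, KRT19, GATA3 and PPARG fell and passed the test described below. Others did not pass, among them EPCAM (1.925 CPM in vehicle and 2.892 CPM in treated), FOXA1, COL1A1, PDGFRB and PECAM1. The part of the markers in the results below was not tested. In these bulk samples, fewer cells of a kind and less RNA per cell cannot be told apart.

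Most members were scarce. The mean over the 6 libraries ranged from 0.546 to 115.5 CPM with a median of 2.11 CPM, 13 members reached 10 CPM, and 64 stayed under 2 CPM. After treatment 58 members had fallen, 23 had risen and 52 did not pass the test (edgeR's quasi-likelihood test with Benjamini-Hochberg adjustment over all 19170 tested genes, threshold 0.05). Fallen members made up 43.6% of the members and risen members 17.3%, where 26.4% of all tested genes fell and 28.9% rose; 60.9% of members and 55.3% of all tested genes passed in either direction. The median log2 fold change, treated minus vehicle, was -0.61 over the members and 0.00 over all tested genes. Because the rule used this contrast, nothing is read from these shares.

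Of the fallen members 47 changed by 2-fold or more, as did 16 of the risen; of all tested genes 14.3% fell and 17.8% rose by that much. In 96 members (72.2%) the 3 vehicle and 3 treated values did not overlap, as in 67.0% of all tested genes. Among the 85 members that reached 1 CPM in both groups, 33 fell, 10 rose and 42 did not pass, with a median of -0.39. When members were instead taken by the mean of all 6 libraries, there were 113, some of which still passed through 1 group alone, of which 50 fell and 18 rose, with a median of -0.49. Members that did not pass had log2 fold changes from -1.21 to 0.69. No exact permutation of 3 against 3 libraries gives a two-sided p below 0.1, so single genes rest on the fit across all genes.

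**Figure D1:**
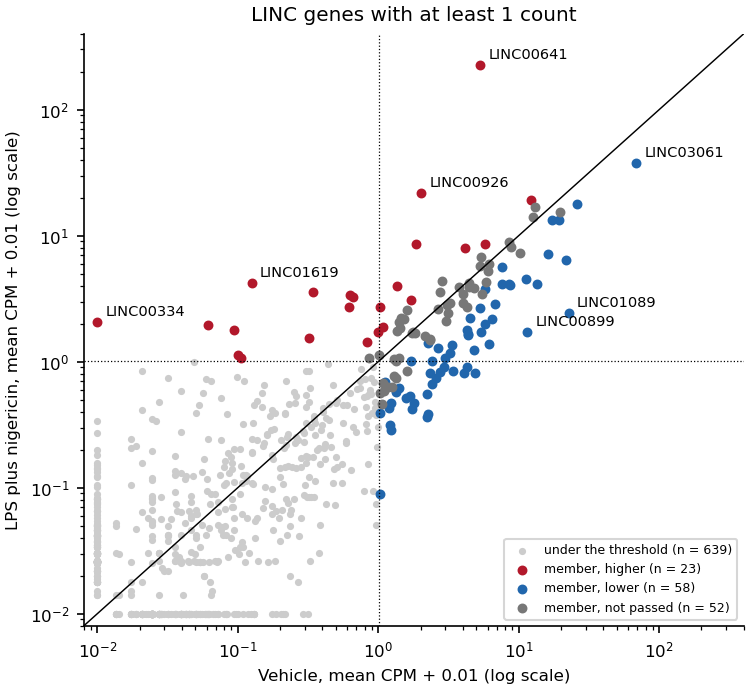
Each point is 1 LINC gene with at least 1 count in any library: the x axis is the mean CPM plus 0.01 in 3 vehicle libraries and the y axis the same in 3 LPS plus nigericin libraries, both on log scales, and dotted lines mark the 1 CPM threshold. Members that fell (58) lie below the diagonal, those that rose (23) above it, and LINC00641 stands alone at the top, at 5.33 CPM in vehicle and 225.7 CPM in treated; LINC genes under the threshold are light grey.

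LINC00641 was the most abundant member after treatment. Its gene lies on the minus strand of chromosome 14, 21200079 to 21206900, in 2 exon blocks with 5715 exon bases. It measured 5.80, 4.30 and 5.88 CPM in the vehicle libraries and 271, 203.3 and 202.8 CPM in the treated libraries. The groups were far apart, and treated library 1 was the highest of its group. The log2 fold change was 5.40 (SE 0.20, edgeR adjusted p = 1.15e-05), a 42.3-fold rise; with offsets for GC content and length the log2 fold change was 4.62. By log2 fold change LINC00641 ranked 203 among all 19170 tested genes. Among the 1895 tested genes at 100 CPM or more after treatment, a cut on the treated level itself, only 1 had a larger value. Counted per kb of exon, LINC00641 went from 0.932 to 39.5 CPM, above every other member in treated, where the next, LINC01116, had 8.68 CPM per kb.

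The window around its start is printed as an example, as are those of LINC01619 and of the fallen members LINC00899 and LINC01679 further below. LINC00899 held the most CG dinucleotides of any member matched, so the printed windows do not stand for the risen or fallen members. Sequences are from RefSeq (GRCh38.p14), run 5′ to 3′ along the transcribed strand from 250 bases before the start to 50 bases after it, and capitals mark each CG dinucleotide. The LINC00641 window, chr14:21206851-21207150 on the minus strand, had 2 CG dinucleotides and a GC content of 39.0%.
LINC00641: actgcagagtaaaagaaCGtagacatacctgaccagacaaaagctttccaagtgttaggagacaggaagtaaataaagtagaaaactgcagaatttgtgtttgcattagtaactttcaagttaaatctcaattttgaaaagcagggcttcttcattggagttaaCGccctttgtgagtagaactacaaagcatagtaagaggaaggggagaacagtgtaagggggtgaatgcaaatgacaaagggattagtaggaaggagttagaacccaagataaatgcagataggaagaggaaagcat

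On the same strand, 2236 bases ahead of the LINC00641 start, ends HNRNPC, the gene of an abundant nuclear protein that packages new transcripts. HNRNPC rose from 504.5 ± 20.6 (SD, n = 3) to 1040 ± 32.1 CPM (log2 fold change 1.04). Beyond LINC00641, again on the minus strand and 41019 bases away, the olfactory receptor gene OR5AU1 measured 0.0876, 0 and 0.110 CPM in vehicle and 5.24, 4.35 and 4.80 CPM in treated (log2 fold change 6.10). SMARCE1P3, a processed pseudogene between LINC00641 and OR5AU1 on the other strand, also rose, by 2.77 on the log2 scale. All 4 tested genes of the locus thus rose, LINC00641 and OR5AU1 by more than HNRNPC. Neighbours within 60 kb were examined after the values of the members were known.

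By Pearson r of log2 CPM over the 6 libraries, the tested genes most like LINC00641 were RBM5 (r = 0.9999), NAALAD2 (r = 0.99975), OR5AU1 (r = 0.99958), GNB1 (r = 0.99956) and HELQ (r = 0.99942). RBM5, a splicing regulator, went from 51.96 to 182.5 CPM, and HELQ, a DNA helicase, from 5.63 to 28.5 CPM. The libraries form 2 groups, so r follows the group difference: 591 tested genes reached 0.99, among them 2 other members. It is given as a description.

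LINC00641 decided the summed level of the members. The sum of all 133 was 632.7 ± 14.02 CPM in vehicle and 687.7 ± 41.0 CPM in treated (SD, n = 3). LINC00641 held 0.844% of that sum in vehicle and 32.7% in treated. Without it the sum of the other 132 was 617.5, 644.5 and 619.9 CPM in vehicle and 462.8, 470.9 and 452.4 CPM in treated. Every treated library was then below every vehicle library. The members were chosen by these group means, and LINC00641 was set apart with its values known. Nothing is therefore read from the order of these sums. The 909 LINC genes under the threshold together made 79.2 ± 5.53 CPM in vehicle and 70.7 ± 1.91 CPM in treated.

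**Figure D2:**
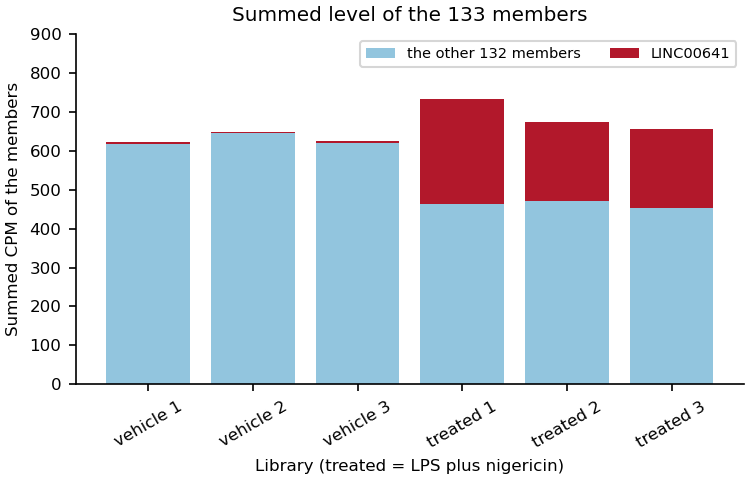
Bars give the summed CPM of the 133 members in each of the 6 libraries, from 0, divided into LINC00641 (red) and the other 132 members (blue). The blue part is 617.5 to 644.5 CPM in vehicle and 452.4 to 470.9 CPM in treated, while LINC00641 adds 4.30 to 5.88 CPM in vehicle and 202.8 to 271 CPM in treated.

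The other abundant members moved little in comparison. LINC03061, the most abundant member in vehicle, lies on chromosome 13, 109269634 to 109278512, and measured 65.6, 72.7 and 66.7 CPM in vehicle against 37.8, 39.5 and 36.1 CPM in treated. The groups did not overlap, and it fell by 0.85 on the log2 scale (SE 0.11, edgeR adjusted p = 0.000549), and by 1.49 with offsets for GC content and length. LINC00665 went from 26.2 ± 1.57 to 17.9 ± 1.46 CPM and LINC01278 from 19.3 ± 1.60 to 13.2 ± 0.80 CPM, a log2 fold change of -0.55 each, and both passed. LINC02381 fell from 17.3 to 13.4 CPM (-0.37, edgeR adjusted p = 0.0486), but the call was lost when any library other than vehicle 2 was left out, and the value was 0.19 with offsets for GC content and length. LINC01128 rose from 12.2 ± 1.76 to 19.2 ± 1.24 CPM (0.66), and with those offsets the value was 0.20 with an adjusted p of 0.13. LINC01116 stood at 19.8 and 15.5 CPM (-0.36), and LINC00958 at 13.0 and 16.8 CPM (0.38). Neither passed, though each was called without vehicle 2.

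Further abundant members showed larger falls. LINC00963 measured 21.9, 24.3 and 19.4 CPM in vehicle and 6.42, 6.46 and 6.40 CPM in treated (log2 fold change -1.76, edgeR adjusted p = 9.51e-05), with groups that did not overlap. LINC00511, whose gene joins 57 exon blocks over chromosome 17, 72290091 to 72640472, went from 16.2 ± 1.86 to 7.17 ± 0.40 CPM (-1.18), and LINC00857 from 7.56 ± 0.85 to 4.14 ± 0.87 CPM (-0.87). LINC03057 fell from 13.6 to 4.13 CPM (-1.72) and LINC01224 from 11.2 to 4.49 CPM (-1.31). These 5 genes were picked after their values were seen.

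**Figure D3:**
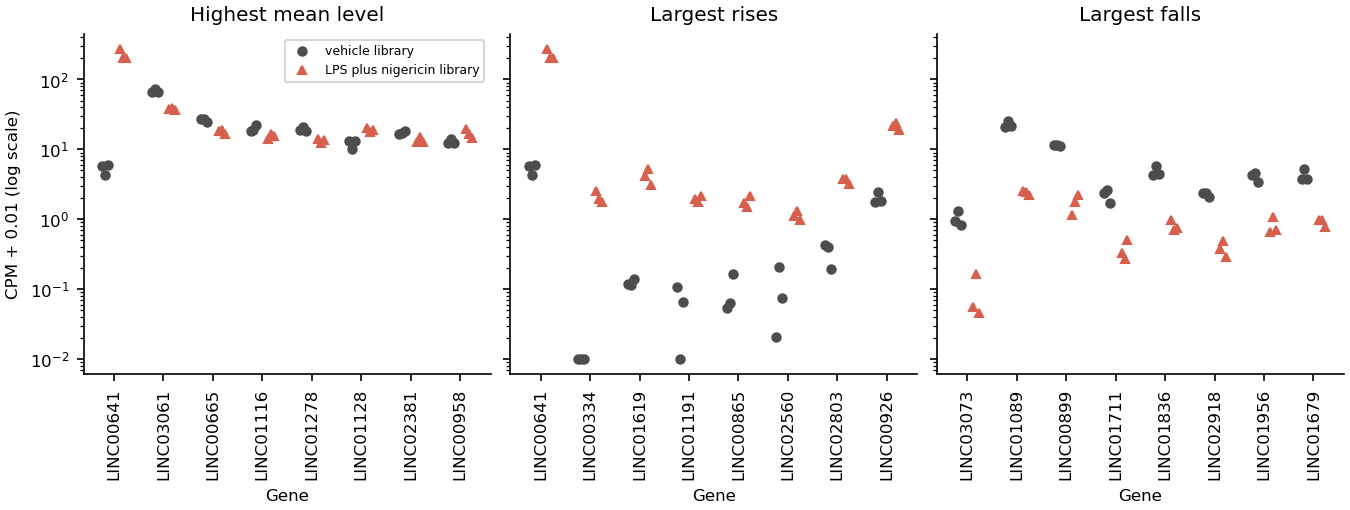
Points are single libraries, vehicle as dark circles and LPS plus nigericin as red triangles, with CPM plus 0.01 on a log axis, for the 8 members with the highest mean level and the 8 that rose most and 8 that fell most with groups that do not overlap. Within each group the libraries lie close together for abundant genes such as LINC03061 (65.6 to 72.7 CPM in vehicle), and spread most for genes near 0 in vehicle such as LINC02560 (0.0110 to 0.197 CPM).

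Apart from LINC00641, several of the largest rises belonged to genes that were close to silent in vehicle. LINC00926, described below, was not among these, with a vehicle mean of 2.01 CPM. A gene under 1 CPM in vehicle could be a member only through its treated level. Large rises of nearly silent genes were thus built into the rule, and nothing is read from their vehicle level. LINC00334 (chromosome 21, 45234340 to 45264548, plus strand) had 0 counts in all 3 vehicle libraries and 166, 160 and 148 counts in treated, that is 2.51, 1.92 and 1.76 CPM. Against a floor of 3 counts over the vehicle libraries together, 0.0116 CPM, it was at least 178-fold higher. Of its exons, 310 bases overlap those of POFUT2, a protein O-fucosyltransferase gene on the other strand that rose from 36.8 ± 2.61 to 97.9 ± 7.10 CPM. Without the strand of the reads, LINC00334 and POFUT2 reads over those bases cannot be told apart.

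LINC01619 (chromosome 12, 91984976 to 92142914, minus strand) measured 0.110, 0.105 and 0.132 CPM in vehicle and 4.18, 5.27 and 3.11 CPM in treated (log2 fold change 5.16, SE 0.32, edgeR adjusted p = 3.84e-05). No treated value came near a vehicle value. It shares 503 exon bases on the same strand with BTG1, an antiproliferative gene that went from 14.3 ± 2.69 to 24.9 ± 0.74 CPM. The LINC01619 window, chr12:92142782-92143081 on the minus strand, had 1 CG dinucleotide and a GC content of 36.0%.
LINC01619: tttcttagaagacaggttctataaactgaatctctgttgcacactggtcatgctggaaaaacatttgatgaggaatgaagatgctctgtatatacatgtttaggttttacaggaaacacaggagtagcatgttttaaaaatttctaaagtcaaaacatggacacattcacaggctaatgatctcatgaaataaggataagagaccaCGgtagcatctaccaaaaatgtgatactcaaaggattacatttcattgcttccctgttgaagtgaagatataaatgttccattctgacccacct

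LINC01191 measured 0.0986, 0 and 0.0548 CPM in vehicle and 1.92, 1.75 and 2.15 CPM in treated (5.16, SE 0.68; 5.98 without vehicle 1), starting 16973 bases behind ACTR3, an actin-nucleating Arp2/3 subunit gene that rose from 135.7 to 249.1 CPM. LINC00865 measured 0.0438, 0.0524 and 0.154 CPM in vehicle and 1.69, 1.46 and 2.13 CPM in treated (4.36, SE 0.50; 5.15 without vehicle 3), 54571 bases behind KIF20B, a mitotic kinesin gene that rose from 18.2 to 39.2 CPM. In both genes the treated values were all far above the vehicle values. LINC01191 shares 220 exon bases with another gene on the same strand and LINC00865 shares 1723 with a pseudogene, MARK2P16, on the opposite strand.

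Of the 8 largest rises, LINC00926 reached the highest treated level after LINC00641. It measured 1.76, 2.43 and 1.84 CPM in vehicle and 21.9, 23.9 and 19.1 CPM in treated (log2 fold change 3.43, SE 0.19, edgeR adjusted p = 3.12e-05), with groups well apart. It starts 1084 bases behind TCF12, a basic helix-loop-helix transcription factor gene that went from 19.5 ± 6.26 to 56.6 ± 7.74 CPM. LINC02803 (0.332 to 3.59 CPM, 3.43) starts 24318 bases behind COP1, a ubiquitin ligase gene (13.9 to 22.5 CPM). LINC02560 rose from 0.0911 ± 0.0954 to 1.13 ± 0.17 CPM (3.65). Its vehicle spread, 18-fold between libraries at 1, 15 and 6 counts, was the widest of the 130 members with no 0 in vehicle, and without vehicle 2 the log2 fold change was 4.82, and 4.24 with the GC content and length offsets. The gene ahead of it by 3142 bases, RNF225, went from 0.0146 to 0.853 CPM (5.67), while ZNF584, the nearest gene at 825 bases, fell by 0.92 on the log2 scale.

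The remaining risen members changed less or less evenly. LINC00943 passed (3.43, SE 1.24, edgeR adjusted p = 0.0446) although treated library 3 had 0.119 CPM and the others 1.56 and 1.52 CPM, so its groups overlapped, with a highest vehicle value of 0.252 CPM. That call was lost with library totals, limma-voom, no count filter and the GC content and length offsets, and without any 1 library other than vehicle 1 or treated 3; the value was 5.80 without vehicle 1 and 2.88 without vehicle 2. LINC01004 measured 1.90, 1.02 and 2.59 CPM in vehicle and 9.65, 7.44 and 8.45 CPM in treated (2.21), and LINC02574 rose from 0.617 to 3.36 CPM (2.45). LINC01127, which lies ahead of the decoy interleukin-1 receptor gene IL1R2, rose from 0.310 ± 0.057 to 1.52 ± 0.31 CPM (2.29), while IL1R2 measured 0.239 and 0.0755 CPM and did not pass. Smaller rises, from 0.58 to 2.31, were called in LINC00630, LINC01881, LINC00707, LINC02035, LINC00910, LINC00163, LINC01347, LINC01176, LINC02980, LINC01128 and LINC01963. Of these, the call of LINC01176 was lost without any 1 library other than treated 2, that of LINC01347, LINC01963 and LINC02980 without vehicle 1, treated 1 or treated 3, and that of LINC02980, LINC01128 and LINC01963 with the GC content and length offsets. LINC00630 had 2.99 without vehicle 3.

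LINC03073 had the most negative log2 fold change and was also the member closest to the threshold. It measured 0.920, 1.30 and 0.822 CPM in vehicle and 0.0453, 0.156 and 0.0357 CPM in treated, the last from 3, 13 and 3 counts (-3.64, SE 0.60, edgeR adjusted p = 0.00158). The groups did not overlap. Without treated 2 the value was -4.61, and with the GC content and length offsets -2.94. It shares 197 exon bases with LINC02983 on the other strand, itself a member that fell from 1.67 to 0.522 CPM (-1.67), so these are not independent observations.

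LINC01089 was the abundant member with the largest fall. It lies on the minus strand of chromosome 12, 121795267 to 121803906, and measured 20.96, 25.4 and 21.5 CPM in vehicle and 2.54, 2.43 and 2.25 CPM in treated. Every vehicle library was far above every treated library. The log2 fold change was -3.23 (SE 0.16, edgeR adjusted p = 2.09e-05), a 9.40-fold fall. Its start faces away from that of SETD1B, a histone H3 lysine methyltransferase gene, at 274 bases, and SETD1B did not pass (22.2 ± 4.24 and 25.1 ± 2.64 CPM, 0.18). TMEM120B, at 12266 bases, fell by 1.46 on the log2 scale, and the genes ENSG00000272849 (-4.25) and ENSG00000274292 (-1.58), which overlap LINC01089 on the other strand, fell too. ENSG00000274292 shares 2011 of the 4132 exon bases of LINC01089, so their reads cannot be told apart there.

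LINC00899 measured 11.7, 11.7 and 11.1 CPM in vehicle and 1.13, 1.74 and 2.24 CPM in treated (log2 fold change -2.75, SE 0.26, edgeR adjusted p = 0.000157). The highest vehicle value was 1.05 times the lowest, and all treated libraries were far below. It starts 4625 bases behind PRR34, which fell from 0.829 to 0.240 CPM (-1.79). The LINC00899 window, chr22:46044819-46045118 on the minus strand, held 48 CG dinucleotides, the most of any member matched, and a GC content of 81.0%.
LINC00899: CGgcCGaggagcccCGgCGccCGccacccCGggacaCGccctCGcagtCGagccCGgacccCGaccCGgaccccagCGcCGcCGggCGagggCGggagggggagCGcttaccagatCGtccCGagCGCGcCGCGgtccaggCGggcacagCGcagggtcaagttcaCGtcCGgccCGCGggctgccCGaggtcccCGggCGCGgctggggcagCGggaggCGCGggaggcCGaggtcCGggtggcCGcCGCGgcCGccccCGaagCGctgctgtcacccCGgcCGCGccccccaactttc

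LINC01836 (4.84 ± 0.83 to 0.799 ± 0.135 CPM, -2.60) and LINC01679 (4.28 ± 0.90 to 0.895 ± 0.105 CPM, -2.26) were the other largest falls whose RefSeq and GENCODE starts lie within 100 bases of each other; for LINC00899 they are 15 bases apart. The LINC01679 window, chr21:43362300-43362599 on the minus strand, is printed as a second fallen example, with 24 CG dinucleotides and a GC content of 66.3%.
LINC01679: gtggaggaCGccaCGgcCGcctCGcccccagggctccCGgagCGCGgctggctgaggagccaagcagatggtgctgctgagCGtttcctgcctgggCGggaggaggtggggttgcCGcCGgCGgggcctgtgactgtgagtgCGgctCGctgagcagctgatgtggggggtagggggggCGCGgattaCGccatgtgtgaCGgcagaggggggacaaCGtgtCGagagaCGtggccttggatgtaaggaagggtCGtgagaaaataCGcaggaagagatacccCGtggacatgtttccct

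LINC01711 fell from 2.23 ± 0.45 to 0.356 ± 0.117 CPM (-2.64) and LINC02918 from 2.25 ± 0.15 to 0.372 ± 0.103 CPM (-2.59). LINC01956 measured 4.24, 4.59 and 3.43 CPM in vehicle and 0.650, 1.07 and 0.690 CPM in treated (-2.34, SE 0.27). It starts 7061 bases behind the homeobox gene EN1, which fell from 7.38 ± 1.02 to 1.75 ± 0.22 CPM (-2.07). LINC01431 had the widest treated spread of any member, 15.4-fold, at 0.242, 0.551 and 0.0357 CPM, and passed (-2.15, edgeR adjusted p = 0.0350), but not without vehicle replicate 1 (adjusted p = 0.098) or without treated replicate 1 (adjusted p = 0.11); without treated replicate 2 the value was -3.19. LINC01977, just inside the threshold, did not pass (1.02 ± 0.46 and 0.553 ± 0.478 CPM), but did without treated replicate 2 (-1.88, adjusted p = 0.029).

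Other fallen members also had groups that did not overlap. LINC01410 (6.75 ± 1.32 to 2.84 ± 0.02 CPM, -1.25), LINC02669 (4.29 to 1.77 CPM, -1.28), LINC02910 (3.35 to 1.34 CPM, -1.32), LINC01305 (3.22 to 1.17 CPM, -1.46) and LINC02970 (2.96 to 1.06 CPM, -1.49) remained at 1 CPM or more after treatment, as did LINC03072, LINC02434 and LINC01001. The fall of LINC01001 (-0.44) was called neither with the GC content and length offsets, where the value was 0.26, nor without any 1 library other than vehicle 2, and that of LINC02434 neither without treated 1 nor without treated 2. LINC01537 (1.73 ± 0.04 to 0.408 ± 0.092 CPM, -2.08), LINC03015 (2.21 ± 0.73 to 0.542 ± 0.258 CPM, -2.04), LINC01842 (-1.99), LINC01311 (-1.81), LINC01182 (-1.70), LINC01273 (-1.60), LINC01852 (-1.54), LINC01003 (-1.50) and LINC02591 (-1.24) were under 1 CPM after treatment; with the offsets LINC01003 did not pass (-0.75), and LINC01311 was at -0.88. LINC01273, which lies nearest to the transcription factor gene CEBPB, had 1.56 ± 0.49 CPM in vehicle and 0.509 ± 0.247 CPM in treated.

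Members that did not pass included several with close group means. LINC00294 stood at 12.7 ± 1.09 CPM in vehicle and 14.1 ± 0.61 CPM in treated (0.15), LINC02210 at 8.46 ± 0.29 and 8.86 ± 0.32 CPM (0.07), LINC00623 at 8.75 ± 0.70 and 8.18 ± 0.78 CPM (-0.10), and LINC00973 at 4.41 ± 0.46 and 4.21 ± 0.26 CPM (-0.07); in each of these genes the groups overlapped. With the GC content and length offsets LINC02210 was called lower (-0.54) and LINC00623 higher (0.48). Others missed the threshold with groups that did not overlap, among them LINC02604 (10.2 to 7.24 CPM, -0.49, edgeR adjusted p = 0.053, and 0.17 with those offsets), LINC01572 (1.60 to 2.57 CPM, 0.69, adjusted p = 0.0583) and LINC01123 (1.16 to 0.621 CPM, -0.90, adjusted p = 0.0602). LINC01409 had the most negative value, -1.21, from 1.05 ± 0.12 to 0.449 ± 0.265 CPM (adjusted p = 0.0618). LINC01139, at 5.48 ± 2.65 and 3.41 ± 1.19 CPM (-0.69), had overlapping groups, and was called lower without vehicle 2 (-1.01). LINC02604, LINC01572, LINC01123 and LINC01409 were also called in at least 1 alternative. These genes were named after their values were seen.

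RefSeq start windows were matched for 94 members. The median number of CG dinucleotides per window was 3.5 in the 14 matched members that rose, 17.5 in the 46 that fell and 10 in the 34 that did not pass. Over all tested genes the medians were 26 for those that rose and 27 for those that fell, and over other long noncoding genes 15.5 (n = 102) and 26 (n = 325). Among risen members LINC00334 had 22 and LINC00865 had 15. These medians were not tested, and most risen members entered through their treated level alone (13 of 23). Across the 133 members the log2 fold change had a Spearman correlation of -0.29 with transcript GC content and 0.12 with transcript length, as a description across genes. With offsets for GC content and length, 24 members were higher and 63 lower, with a median of -0.61. Of the 18620 genes tested with these offsets 25.8% were higher and 24.1% lower, with a median of 0.01. Among the members 19 of the 23 risen and 51 of the 58 fallen kept their call and 0 took the opposite one. Values moved by these offsets by more than 1.5 times included LINC01191 (5.95), LINC01089 (-2.63), LINC01711 (-1.89), LINC01956 (-1.63), LINC01679 (-1.66), LINC00163 (1.74), LINC02035 (0.77) and LINC03057 (-0.95).

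Sequence motifs were searched on both strands of the same windows, allowing overlaps. TATAAA, the TATA box core, was in 5 of the 14 windows of risen members (35.7%), 4 of 46 of fallen members (8.70%) and 11.5% of all 35116 windows. TGANTCA, bound by AP-1, was in 0 of 14, 5 of 46 (10.9%) and 7.71%. The NF-kB motif was in 0 of 14, 3 of 46 (6.52%) and 5.91%. With 14 windows these are descriptions of letters and say nothing of binding.

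A second feature the rule did not use is position. Of the members, 21 start within 10 kb behind the end of a protein-coding gene on the same strand: 7 of them rose, 8 fell and 6 did not pass. That is 30.4% of the risen, 13.8% of the fallen and 11.5% of the other members. For other tested long noncoding genes the shares were 24.2%, 14.7% and 18.7%, and for protein-coding genes 14.2%, 31.0% and 21.0%. The gene ahead was tested for 20, and in all 12 pairs in which both passed the member and the gene ahead had moved in the same direction. Over other tested long noncoding genes this held in 96 of 137 pairs (70.1%) and over protein-coding genes in 804 of 1077 (74.7%). Within 100 kb, a window added after the data were seen, it held in 22 of 26 member pairs (84.6%), in 67.4% of pairs of other long noncoding genes and in 72.7% of protein-coding pairs. In that window 69.6% of risen and 50% of fallen members lay behind a gene, as did 66.9% and 56.7% of other long noncoding genes. The shared direction also marks other gene classes, and nothing particular to the members is read from it.

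In the risen pairs, and likewise in the fallen pairs in which both passed, the member usually changed more than the gene ahead. LINC00334, LINC02560 and LINC02574 reached 1 CPM only in treated, so a rise was part of how they entered. The genes ahead were not chosen in this way, and the sizes are a description. LINC00334, at 0 in vehicle, starts 7780 bases behind ADARB1 (0.48). Beside LINC00641 and HNRNPC, and LINC00926 and TCF12 (3.43 and 1.54), LINC02574 (2.45) starts 3339 bases behind the interferon-induced gene IFI6, which went from 131.6 ± 16.2 to 248.1 ± 39.6 CPM (0.92). LINC02035 (1.41) starts 5802 bases behind SLC49A4 (0.51), and LINC02980 (0.79) starts 1436 bases behind TRIM38 (0.67), an E3 ligase gene of innate signalling; with offsets for GC content and length LINC02980 did not pass (0.33). LINC02560 was the exception, with a smaller log2 fold change than RNF225. Per kb of exon, HNRNPC in treated had 142.2 CPM and LINC00641 39.5 CPM, whereas TCF12 and LINC00926 had nearly equal levels, 5.996 and 5.90 CPM per kb.

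Among fallen pairs, again with only the members chosen by their group means, some sizes were close to each other. LINC01956 and EN1 had -2.34 and -2.07, whereas LINC00899 and PRR34 lay further apart, at -2.75 and -1.79. LINC02983 fell by 1.67 and FBXL18, which ends 2408 bases ahead of it, by 1.36 on the log2 scale. LINC01569 fell by 1.76 and TFAP4, a transcription factor gene, by 1.48, and LINC02976 fell by 0.72 and CNPY3, a chaperone gene of Toll-like receptors, by 0.62. The call of LINC02976 was lost without any 1 of the 6 libraries, and that of LINC02983 with the GC content and length offsets (-0.81). LINC00511 (-1.18) and LINC03060 (-1.95) fell although the genes ahead, SLC39A11 (0.32) and AKR1B1 (-0.13), did not pass.

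**Figure D4:**
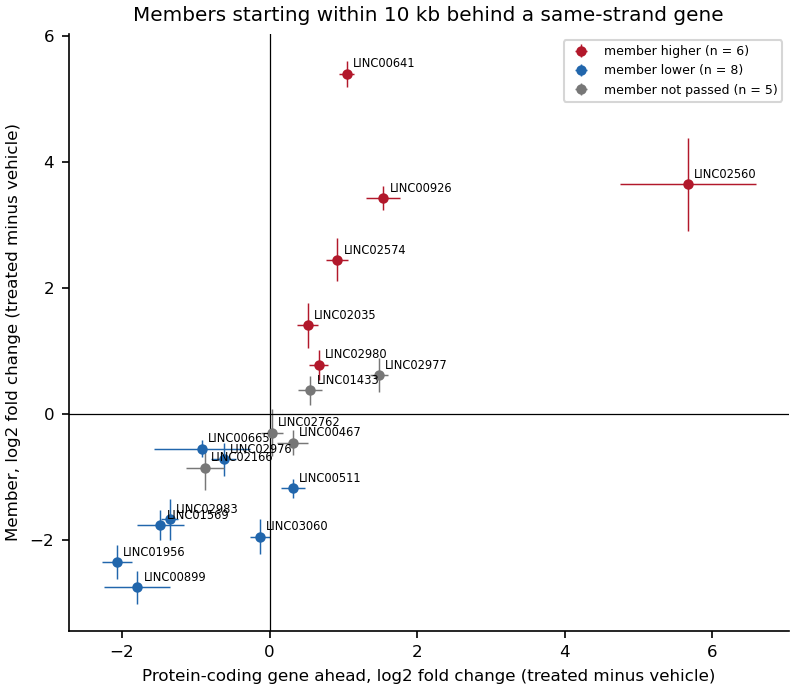
Each point is a member that starts within 10 kb behind a tested same-strand protein-coding gene: the x axis is the log2 fold change of the gene ahead, the y axis that of the member, and bars are standard errors; LINC00334, at 0 in vehicle, is left out. Pairs in which both passed lie in the upper right or lower left, from LINC00899 and PRR34 (-2.75 and -1.79) to LINC00641 and HNRNPC (5.40 and 1.04).

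Another 7 members start within 2 kb of a protein-coding gene running the other way. The pairs differed in direction. LINC01135 measured 1.41, 1.76 and 1.95 CPM in vehicle and 1.04, 0.911 and 1.07 CPM in treated (-0.76, SE 0.25, edgeR adjusted p = 0.0304). The call was lost with no count filter (adjusted p = 0.057) and without any 1 library other than vehicle 1. JUN, the AP-1 subunit gene that starts 801 bases away, rose from 103.9 ± 12.0 to 433.5 ± 52.9 CPM (2.06). LINC01004 rose together with KMT2E (2.21 and 2.06), and LINC01547 fell together with SLX9 (-1.43 and -1.09; -0.61 and no call for LINC01547 with the GC content and length offsets), as did LINC02918 with IPO13 (-2.59 and -0.75). LINC00205 (-0.68) and LINC00938 (-0.52) did not pass, though both were called lower with those offsets and without vehicle 2, while their partners POFUT2 (1.41) and ARID2 (1.28) rose.

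Members next to each other could also part ways. LINC00163 and LINC00165 lie on the minus strand of chromosome 21, 276 bases apart. LINC00163 (44989864 to 44994086) measured 1.69, 1.90 and 1.49 CPM in vehicle and 3.08, 3.32 and 2.84 CPM in treated (0.86, SE 0.21, edgeR adjusted p = 0.00839). LINC00165 (44994362 to 44995185) measured 6.35, 7.996 and 5.14 CPM in vehicle and 1.99, 2.79 and 1.69 CPM in treated (-1.59, SE 0.26, edgeR adjusted p = 0.00168). Neither gene's groups overlapped. LINC00526 and LINC00667, which overlap on opposite strands, both fell (-1.40 and -1.04). The call of LINC00526 was lost with the GC content and length offsets (-0.94) and without any 1 treated library.

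Of the 51 members that share at least 50 exon bases with another gene, 12 rose, 19 fell and 20 did not pass. The 82 others gave 11, 39 and 32, and the medians were -0.61 and -0.59. Risen members made up 23.5% of the sharers and 13.4% of the others, and fallen members 37.3% and 47.6%. Of all tested genes 28.9% rose and 26.4% fell. Membership used the group means, so nothing is read from these shares. By their largest overlap, among the risen sharers LINC00630, LINC01881, LINC00707, LINC00910, LINC01347 and LINC01176 share bases on the same strand, as do LINC01619 and LINC01191, and LINC02980 and LINC01128 on the other, as do LINC00334 and LINC00865. The fallen sharers all have their largest overlap with the opposite strand: LINC01145, LINC00997, LINC01138, LINC02984, LINC00667, LINC00649, LINC01106, LINC01232, LINC00526, LINC00242, LINC02987, LINC03052, LINC02983, LINC01629, LINC00847, LINC00339, LINC02783, LINC01089 and LINC03073. Their log2 fold changes ran from -3.64 to -0.61, and the partner genes include ATP5PO for LINC00649 and TM9SF2 for LINC01232. Over all 51 sharers the largest overlap was on the opposite strand in 35, and strand was not tested against direction. The calls of LINC00526, LINC00997, LINC00242 and LINC01145 were lost without vehicle 1 and without treated 1. That of LINC00997 was also lost without vehicle 2, vehicle 3 or treated 3, and that of LINC01145 without treated 2. LINC00526 also lost its call with limma-voom and without treated 2 or treated 3. With the GC content and length offsets neither LINC00526 nor LINC00242 passed.

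Other long noncoding classes give the context, each taken at 1 CPM or more in either group, like the members. Of 295 antisense genes (symbols ending in AS and a number) 156 fell and 35 rose, with a median log2 fold change of -0.80. Of 116 divergent transcripts (symbols ending in DT) 69 fell and 8 rose, with a median of -1.06. Of 24 microRNA host genes 14 fell and 1 rose (-1.08), while small nucleolar RNA host genes were even, with 10 risen and 9 fallen of 23 (-0.05). Over all 14183 tested genes at that level 34.2% rose and 32.1% fell. The 188 tested LINC genes under the threshold had 30 fallen and 26 risen, with a median of -0.26. A fall was thus not particular to the LINC members, and differences between the classes were not tested.

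**Figure D5:**
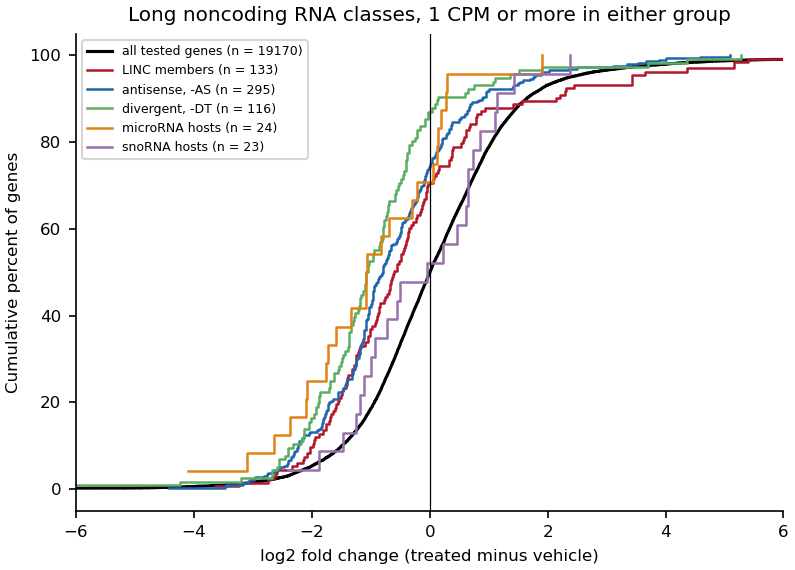
Lines give the cumulative percent of genes (y axis) at or below each log2 fold change, treated minus vehicle (x axis), for tested genes of each long noncoding class at 1 CPM or more in either group and for all 19170 tested genes (black). The line of the 133 members lies left of the black line around 0, with a median of -0.61 against 0.00, and crosses to its right above about 2, where the large rises are.

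Genes of the machinery that ends and degrades such RNAs were called in both directions, at shares to be set beside the 34.2% risen and 32.1% fallen of all tested genes at 1 CPM or more. Of 27 genes of the nuclear exosome and its adaptors 10 rose and 8 fell, with a median log2 fold change of 0.00: the core subunit gene EXOSC7 fell from 27.3 ± 1.02 to 6.86 ± 1.47 CPM (-1.99) and EXOSC8 from 76.7 to 43.6 CPM (-0.81), while the adaptor gene ZCCHC8 rose from 12.5 ± 3.87 to 57.4 ± 7.61 CPM (2.20). Of 15 Integrator genes, a complex that cuts unfinished transcripts, 4 rose and 5 fell (-0.28), with INTS5 going from 85.2 ± 15.2 to 7.78 ± 0.33 CPM (-3.45), INTS2 from 5.92 to 24.2 CPM (2.03) and INTS3 from 91.4 to 55.4 CPM (-0.72). Of 26 genes of cleavage, polyadenylation and termination 12 rose and 11 fell (0.08), among them RBBP6 (15.8 ± 3.34 to 94.6 ± 18.6 CPM, 2.59), CSTF1 (-1.58) and CLP1 (-1.69). With offsets for GC content and length the medians of the 3 lists were -0.11, -0.15 and -0.10. Values of some called genes then came near 0 or changed sign, such as NRDE2 (0.76 and 0.03), EXOSC5 (-0.67 and 0.17) and PPP1CA (-0.81 and 0.04). The part of these genes in the members' changes was not tested.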

How the data were processed

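RNA from 3 vehicle and 3 LPS plus nigericin libraries of T24 cells was sequenced. The authors deposited raw counts per Ensembl gene, 1 column per library, on hg38 per the submitters' processing notes, with aligner, counter, annotation release and strand setting not given in the sources used here. Library totals were 66180407 to 89152224 counts, so a member at 1 CPM in a library rests on fewer than 100 counts.

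Counts were tested with edgeR 4.0.16 (R 4.3.3): filterByExpr, TMM factors, a robust quasi-likelihood fit with group as the only term, Benjamini-Hochberg adjustment over 19170 genes and a threshold of 0.05. Standard errors were obtained as |log2 fold change| over the root of the F statistic. The edgeR fit was first tested on simulated data. Coordinates and exons came from GENCODE 29, start windows from RefSeq (GRCh38.p14), and symbols from a table of Ensembl gene names. A neighbouring gene of a member is not reported here.

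The members, lists and rules were chosen with earlier results of these data known. The naming rule took the 8 members with the highest mean, the 8 largest rises and 8 largest falls with groups that did not overlap, LINC00641, 2 members just inside and 2 genes just outside the threshold, the widest spread per group, called members sharing exons, and 3 genes per list by smallest p; other names were picked with values in view. The alternatives were RLE factors, library totals, DESeq2 1.42.0, limma-voom (limma 3.58.1), 2 other count filters, a replicate block, offsets for GC content and length, other membership rules, and leaving out each library.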

Additional observations from a re-analysis of the deposited data

How the results depend on the processing

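Across the count alternatives (RLE factors, library totals, DESeq2, limma-voom, no count filter, at least 1 CPM in 3 libraries, and GC content and length offsets) 20 to 24 members were higher and 53 to 64 lower. Leaving out each library gave 18 to 24 higher and 49 to 61 lower, fewest without treated replicate 1. In every one of these fits and under the replicate block, 16 members were higher and 44 lower, and 0 were called the opposite way. Of all tested genes 28.9% were higher and 26.4% lower in the comparison above, and 25.8% and 24.1% with the GC content and length offsets. Under other membership rules the higher count was 38 at 0.5 CPM or more, 15 at 2 CPM or more and 11 among the 82 members that share no exon of 50 bases, since those rules admit more or fewer genes. The value of LINC02381 turned from -0.37 to 0.19 with GC content and length offsets (adjusted p = 0.25, edgeR), and that of LINC01001 from -0.44 to 0.26; the cause was not tested. The labels do not say whether same-numbered libraries are paired. Deviations of same-numbered libraries correlated at -0.02, 0.25 and -0.08, and those of differently numbered ones at -0.29 to 0.33. With 3 libraries per group these values cannot decide whether the libraries are paired. The replicate block gave 21 higher and 56 lower. The 64 members under 2 CPM rest on few counts, which limits their precision.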

Other observations

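Some LINC genes under the 1 CPM threshold also differed between the groups; they were picked after their values were seen and rest on few counts. LINC02818 had 0, 0 and 3 counts in vehicle and 40, 85 and 72 in treated (edgeR adjusted p = 0.00104), and LINC02880 had 0 in all vehicle libraries and 31, 17 and 27 in treated (adjusted p = 0.00316). In the other direction, LINC02361 had a mean of 0.958 CPM in vehicle and 0.0403 CPM in treated (edgeR log2 fold change -4.66, adjusted p = 0.00671). LINC01124 had a mean of 0.304 CPM in vehicle and 0 counts in all treated libraries, and LINC01747 a mean of 0.281 CPM against 0. No explanation of these differences was tested.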
